A study of Mus musculus with 2 samples.

Results

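The genes described here are the 4 CD3 chain genes Cd3d, Cd3e, Cd3g and Cd247 and the 6 T cell receptor constant genes Trac, Trbc1, Trbc2, Trdc, Tcrg-C1 and Tcrg-C2. They were taken by name from the 19837 genes of the deposited table, and all 10 were found there. None was chosen by its measured level. Their molecules were followed in gated classes of spleen cells, by time after remimazolam, together with which of them were found in the same cell.

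The study sequenced single spleen cells of female mice, whose strain the labels write as C57/BL6N, on the BD Rhapsody platform, which captures cells in microwells and counts messenger RNAs by molecular identifiers. The groups were saline, which the labels put at 0 h, and 6 mg/kg remimazolam with spleens taken at 4 h or at 8 h, with 3 mice in each group. Remimazolam is a short-acting benzodiazepine sedative that acts on the GABA(A) receptor. Each group carried 1 sample tag that its 3 mice shared, tag 8 for saline, tag 10 for 4 h and tag 9 for 8 h, and 1 capture held the 3 pools. Single mice therefore cannot be told apart, saline has no pool of its own at the later times, and no difference between treatments below has a replicate check. For the age of the mice the sources used here give nothing. The sorted population is named CD45+CD3+CD5+ by one label and only CD45+ by another. A sort on the CD3 protein would select cells on the product of several genes described here.

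The T cell receptor is a pair of chains, α with β or γ with δ, each with a variable part that meets antigen and a constant part that anchors it in the membrane. The chains have almost no cytoplasmic tail, so the signal is passed on by the CD3 γ, δ, ε and ζ chains, whose tails carry the tyrosine motifs that the kinase LCK phosphorylates. Cd3g, Cd3d and Cd3e encode the γ, δ and ε chains and Cd247 the ζ chain. Trac encodes the α constant region, Trbc1 and Trbc2 are alternative β constant regions, Trdc encodes the δ constant region, and Tcrg-C1 and Tcrg-C2 are constant regions of different γ chains. Most splenic T cells carry an αβ receptor and a minority a γδ receptor. A rearranged β chain gene joins either constant gene, and the joined transcript carries only that one.

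On GRCm38 with GENCODE M21, the genes of the γ, δ and ε chains lie together on chromosome 9. Cd3g occupies chr9:44969572-44980431 on the minus strand, Cd3d chr9:44981786-44987339 on the plus strand and Cd3e chr9:44998740-45009627 on the minus strand. The 3 genes span 40056 bases, and the 5′ ends of Cd3g and Cd3d lie 1355 bases apart on opposite strands. Cd247 stands apart at chr1:165788681-165877277 on the plus strand. Trdc at chr14:54142851-54148868 and Trac at chr14:54220521-54224206 lie in 1 locus on the plus strand, with starts 77670 bases apart. Trbc1 at chr6:41538218-41539881 and Trbc2 at chr6:41546730-41548352, both on the plus strand, start 8512 bases apart. Tcrg-C1 is at chr13:19214103-19217024 on the plus strand and Tcrg-C2 at chr13:19304649-19307551 on the minus strand.

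The paired constant genes resemble each other closely, which bears on how far their counts can be kept apart. Trbc1 and Trbc2 were identical at 495 of 518 coding bases (95.6%) and at 374 of 375 bases of the first exon, while the stretch after the coding part was 48.6% identical. The coding bases after the first exon, 376 to 518 of the GENCODE M21 transcripts on GRCm38, therefore hold 22 of their 23 differences, and capitals mark the bases that differ.
Trbc1: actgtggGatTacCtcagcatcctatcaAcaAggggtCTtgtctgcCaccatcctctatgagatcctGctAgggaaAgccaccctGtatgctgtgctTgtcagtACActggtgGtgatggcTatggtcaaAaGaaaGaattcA
Trbc2: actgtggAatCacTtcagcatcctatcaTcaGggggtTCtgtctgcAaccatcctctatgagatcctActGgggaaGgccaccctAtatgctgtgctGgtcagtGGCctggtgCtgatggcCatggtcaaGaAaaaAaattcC
Tcrg-C1 and Tcrg-C2 were alike along their whole length, with 94.6% identity over the coding part, 97.3% over the first exon and 93.2% after the coding part. How the authors' pipeline assigned reads that match both members of a pair is not stated in the labels or headers. The split of molecules within each pair is therefore uncertain, and sums over a pair are firmer than either member.

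Promoters in the RefSeq table (GRCm38.p6) were matched for 4 of the 10 genes, the 4 CD3 chains. They are shown as the start regions of the genes whose shared presence in single cells is described further on. The 250 bases before each start are printed 5′ to 3′ along the gene's strand, with the ETS core letters GGAA and the E-box letters CANNTG, found on either strand, in capitals. Where both matches touch or overlap, the capitals run on without a break.
Cd3d, chr9:44981536-44981785, plus strand: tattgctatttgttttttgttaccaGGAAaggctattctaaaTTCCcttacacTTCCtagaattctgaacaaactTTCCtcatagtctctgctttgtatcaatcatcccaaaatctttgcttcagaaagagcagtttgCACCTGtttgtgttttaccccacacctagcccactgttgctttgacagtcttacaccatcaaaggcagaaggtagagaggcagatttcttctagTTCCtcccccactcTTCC
Cd3g, chr9:44980432-44980681, minus strand: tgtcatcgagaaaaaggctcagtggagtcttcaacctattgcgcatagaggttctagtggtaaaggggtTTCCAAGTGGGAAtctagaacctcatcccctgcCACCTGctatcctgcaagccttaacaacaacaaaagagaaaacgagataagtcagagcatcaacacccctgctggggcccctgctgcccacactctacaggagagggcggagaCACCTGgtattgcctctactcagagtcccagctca
Cd3e, chr9:45009612-45009861, minus strand: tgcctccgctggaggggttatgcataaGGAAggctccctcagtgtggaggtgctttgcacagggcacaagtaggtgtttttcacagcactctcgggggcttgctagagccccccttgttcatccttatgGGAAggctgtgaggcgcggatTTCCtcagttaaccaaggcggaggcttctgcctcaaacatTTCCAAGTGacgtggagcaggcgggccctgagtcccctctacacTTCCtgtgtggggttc
Cd247, chr1:165788431-165788680, plus strand: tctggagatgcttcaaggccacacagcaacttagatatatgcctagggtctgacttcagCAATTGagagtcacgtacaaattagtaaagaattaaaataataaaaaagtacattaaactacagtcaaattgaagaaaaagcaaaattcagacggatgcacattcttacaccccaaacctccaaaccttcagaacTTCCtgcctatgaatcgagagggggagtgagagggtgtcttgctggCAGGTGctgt
Within these 250 bases GGAA was matched 6 times for Cd3d, 5 for Cd3e, 2 for Cd3g and 1 for Cd247, and 93.4% of the 32851 promoters of that table held it in a window of the same length, with a median of 3 matches. CANNTG was matched once for Cd3d, once for Cd3e, 3 times for Cd3g and 2 times for Cd247, and 66.2% of promoters held it. The TATA letters TATAAA (12.4% of promoters) and the RUNX letters TGTGGT (14%) were not in any of the 4 windows, and the GATA letters AGATAA (9.99%) were in that of Cd3g alone. These are matches of letters only.

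Of 17299 putative cells, some of them called multiplets or undetermined by the authors' tag calls, 16174 carried a single tag in use and 16123 of these passed the cell filters. Cell classes were gated on genes other than the 10 described here. Cells with at least 2 of 5 B cell markers or at least 2 of 7 myeloid markers were set aside, and the other 15611 cells are called T cells here. These were 5124 cells in saline, 5245 at 4 h and 5242 at 8 h, with 13945179, 14311980 and 14249871 molecules and medians of 2535, 2514 and 2516 molecules per cell. Within them, a Foxp3 molecule gave 806 Foxp3+ cells, whose factor marks regulatory T cells, and molecules of the co-receptor genes gave 5490 Cd4+, 6004 Cd8+ and 770 Cd4+Cd8+ cells. Cells with neither co-receptor were divided into 293 with a molecule of 1 of 10 natural killer or innate-like genes (NK receptor+) and 2248 without (NK receptor-). Co-receptor transcripts were often missed, since 62.7% of Foxp3+ cells had a Cd4 molecule, so the double-negative cells include undetected Cd4+ and Cd8+ cells. B cells numbered 132 in saline, 159 at 4 h and 166 at 8 h.

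The gated T cells carried the genes of the complex, which the gates had not used. Of 15611 T cells, 14 (0.0897%) had no molecule of any of 6 components of the αβ receptor complex, counted as Cd3d, Cd3e, Cd3g, Cd247, Trac and either Trbc gene. Levels are given in CPM, the counts of a gene per 1000000 counts of all genes over the cells summed, and intervals are exact 95% intervals that cover counting error only.

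Trbc2 was the most abundant of the 10 in T cells, with 3092 CPM and a molecule in 98% of cells, followed by Trac with 1903 CPM and 93.8%. Cd3e stood at 755.7 CPM (81.5% of cells), Trbc1 at 748.3 CPM (55.4%), Cd3g at 576.5 CPM (73.5%) and Cd3d at 535.3 CPM (72.1%). Cd247 was the scarcest CD3 chain transcript, at 216.4 CPM and 41.9% of cells. The γδ constants were rare in the T cells as a whole: Trdc stood at 86.0 CPM (4.78% of cells), Tcrg-C2 at 39.0 CPM (3.41%) and Tcrg-C1 at 27.0 CPM (2.81%). Divided by the length of the longest transcript, the order was Trbc2 at 4468 CPM per kilobase, Trac at 2035, Trbc1 at 1015, Cd3d at 331.0, Cd3e at 296.4, Cd3g at 227.1, Cd247 at 73.2, Tcrg-C2 at 42.7, Tcrg-C1 at 29.2 and Trdc at 22.3 CPM per kilobase. Molecules were counted by identifiers, so this second order depends on the annotated length and is not a measure of abundance. The order of abundance is the one in CPM. The ranges over the 3 treatments did not overlap between neighbours down to Tcrg-C2, whose range of 35.4 to 52.5 CPM per kilobase overlapped that of Tcrg-C1 at 23.3 to 36.8, and the range of Tcrg-C1 overlapped that of Trdc at 19.1 to 25.4.

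**Figure D1:**
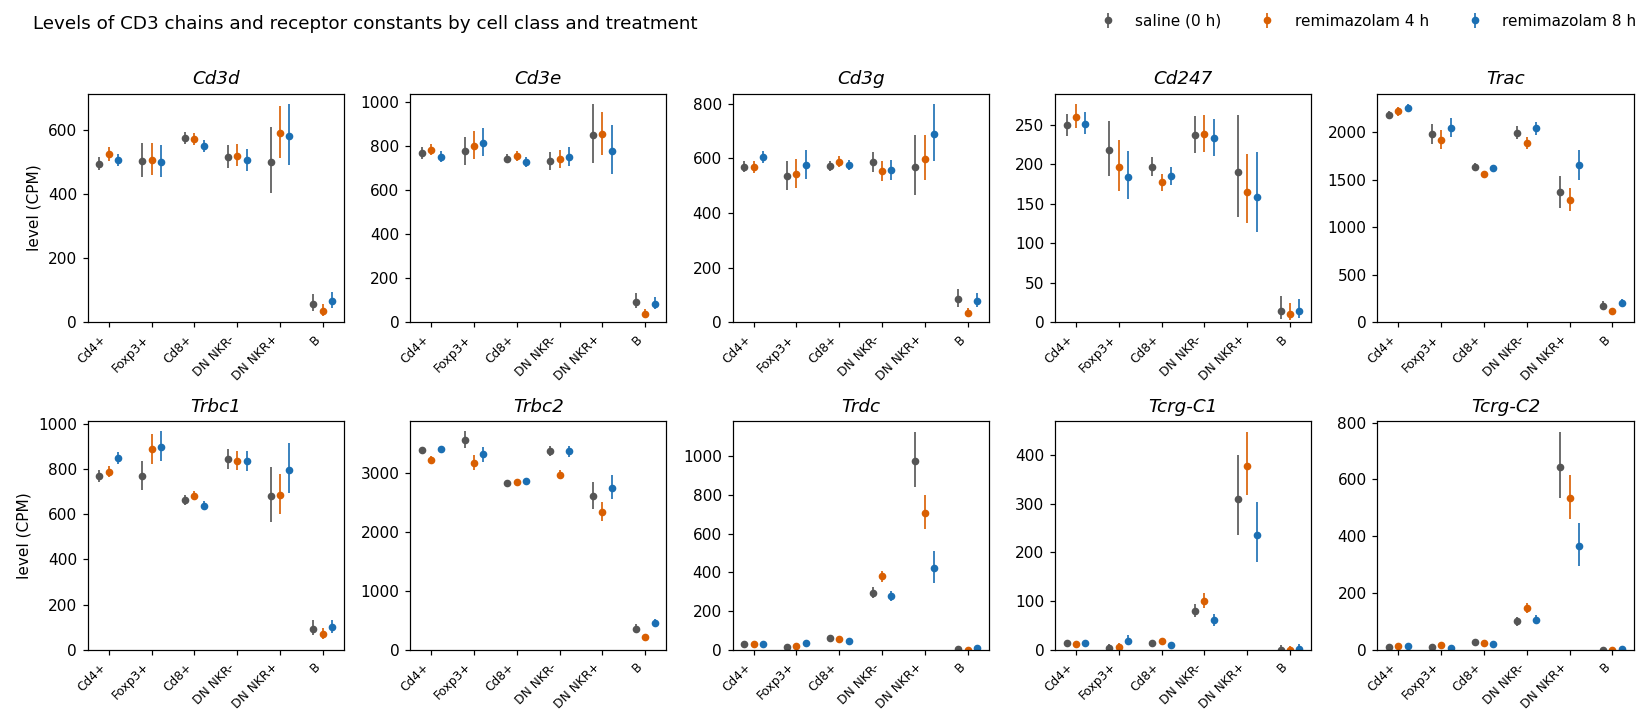
Level of each gene in CPM (vertical axes, each from 0) by gated class and treatment, with points for saline (0 h), 4 h and 8 h and bars for exact 95% Poisson intervals of the molecule count. DN stands for double-negative and NKR for NK receptor. The CD3 chains and αβ constants lie far lower in B cells than in every T cell class, and Trdc, Tcrg-C1 and Tcrg-C2 stand highest in double-negative NK receptor+ cells.

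The CD3 γ, δ and ε chain genes differed little between T cell classes. Cd3e, whose chain pairs with both CD3γ and CD3δ, lay between 741.2 CPM in double-negative NK receptor- cells and 828.4 CPM in double-negative NK receptor+ cells. Cd3g lay between 551.9 CPM in Foxp3+ cells and 621.0 CPM in double-negative NK receptor+ cells. Cd3d lay between 505.0 CPM in Foxp3+ cells and 566.3 CPM in double-negative NK receptor+ cells, with 566.2 CPM in Cd8+ and 509.0 CPM in Cd4+ cells, a ratio of 1.11 (1.08 to 1.15). The spread of each of these 3 genes over the T cell classes was thus below the 25% that is counted as a difference further on.

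Cd247 varied more. It stood at 186.1 CPM in Cd8+ and 253.4 CPM in Cd4+ cells, a ratio of 0.734 (0.7 to 0.770), and Foxp3+ cells stood at 198.8 CPM, a ratio to Cd4+ cells of 0.784 (0.710 to 0.865). Double-negative NK receptor+ cells had the lowest level, 168.9 CPM, and double-negative NK receptor- cells stood at 235.7 CPM. Cd8+ cells stood lower than Cd4+ cells in each pool, with 196.7 CPM in Cd8+ against 249.1 CPM in Cd4+ cells in saline, 176.9 CPM in Cd8+ against 260.1 CPM in Cd4+ cells at 4 h, and 185.2 CPM in Cd8+ against 251.3 CPM in Cd4+ cells at 8 h. The ζ chain gene was thus the CD3 gene that differed most between co-receptor classes.

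The αβ constants were also lower in Cd8+ than in Cd4+ cells. Trac stood at 1611 CPM in Cd8+ and 2222 CPM in Cd4+ cells, a ratio of 0.725 (0.713 to 0.737). Trbc2 stood at 2847 CPM in Cd8+ and 3337 CPM in Cd4+ cells (0.853, 0.842 to 0.864), and Trbc1 at 661.4 CPM in Cd8+ and 803.3 CPM in Cd4+ cells (0.823, 0.802 to 0.845). These ratios describe RNA relative to all RNA of the class, and the median depth was 2754 molecules in Cd8+ and 2422 in Cd4+ cells. With each cell thinned to 1500 molecules, 84.2% of Cd8+ and 91.4% of Cd4+ cells had a Trac molecule. Thinned shares are also relative to all RNA of a cell, and molecules per cell were not compared. In Foxp3+ cells Trac stood at 1985 CPM, between Cd8+ and Cd4+ cells, while Trbc2 at 3344 CPM was level with Cd4+ cells. Double-negative NK receptor+ cells had the lowest Trac and Trbc2, at 1424 and 2532 CPM.

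B cells give the background of free RNA and mixed cells against which these shares are read. Cd3e stood at 70.6 CPM in B cells against 755.7 CPM in T cells, a ratio of 0.0934 (0.0754 to 0.114), and 9.85% of B cells had a molecule against 81.5% of T cells. Trbc2 stood at 342.4 CPM in B cells against 3092 CPM in T cells, with a molecule in 29.5% of B cells, and Trac at 164.0 CPM in B cells against 1903 CPM in T cells, with a molecule in 17.7% of B cells. B cells had a median of 2269 molecules, close to the 2252 of double-negative T cells, in which 96.9% of cells had Trbc2 and 88.9% Trac. The share of Trdc in B cells was 0.875% (4 of 457 cells, 0.239 to 2.23), and Tcrg-C1 and Tcrg-C2 each had 1 molecule in B cells. In B cells the CD3 transcripts lay mostly in few cells: 21 B cells (4.6%) with 5 or 6 of the 6 components held 57.3% of the Trbc and 61.3% of the Cd3e molecules of the class, at a median of 4778 molecules per cell, while 246 of 457 (53.8%) had no component.

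**Figure D2:**
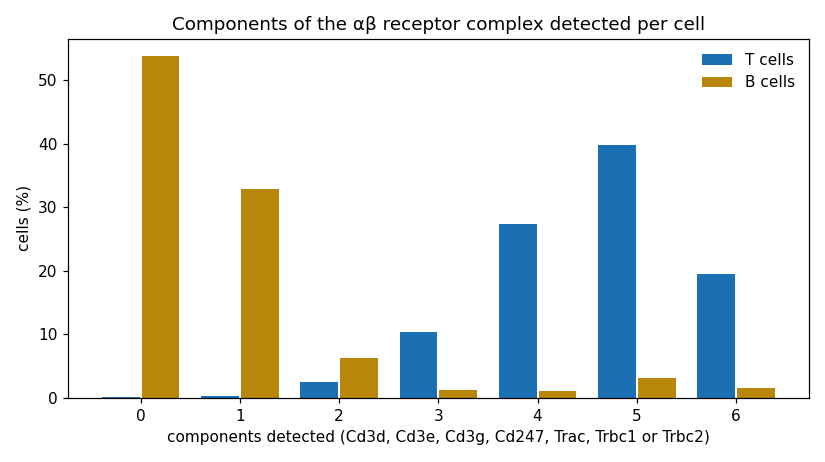
Share of T cells and of B cells (vertical axis, %) by how many of 6 components of the αβ receptor complex had at least 1 molecule (horizontal axis). T cells lie mostly at 4 to 6 components, with 39.8% at 5 and 19.5% at 6, and B cells at 0 or 1, with 53.8% and 32.8%.

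Detection of the whole complex in single cells was limited by depth. All 6 components were found in 3045 of 15611 T cells (19.5%, 18.9 to 20.1), and 5 were found in 6217 cells (39.8%). With each T cell thinned to 1500 molecules, 4.83% had all 6. Cd3d, Cd3e and Cd3g were found together in 46.1% of T cells, and none of the 3 in 413 cells (2.65%, 2.40 to 2.91). Trac together with a Trbc gene was found in 93.5% of T cells, with 96.2% in Cd4+, 93.1% in Foxp3+, 92.9% in Cd8+, 90.2% in double-negative NK receptor- and 75.4% in double-negative NK receptor+ cells. The last class stands below the others in αβ pairs, and it is the class richest in γδ constants.

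Co-detection of CD3 chains with one another was close to what each chain showed alone. Cd3e was found in 83.0% of T cells with Cd3d and in 77.5% of those without it. Cd3d was found in 74.3% of cells with Cd3g and in 65.9% of those without. Cd247 was found in 42.8% of cells with Cd3e and in 38.2% of those without. Cells with a given CD3 transcript thus had the others somewhat more often, and depth per cell moves with all of these shares.

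The share of cells with the complex was alike in the 3 pools. All 6 components were found in 19.9% (18.8 to 21) of T cells in saline, 19.3% (18.3 to 20.4) at 4 h and 19.3% (18.2 to 20.4) at 8 h. Cd3d, Cd3e and Cd3g were found together in 45.8% in saline, 46.1% at 4 h and 46.4% at 8 h. Trac with a Trbc gene was found in 94.0% (93.3 to 94.6), 92.7% (92.0 to 93.4) and 93.9% (93.2 to 94.5) in the same order, so the 4 h pool was slightly lower.

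The next question was whether the level of any of the 10 genes differed after remimazolam. A level at least 25% higher or 20% lower was counted as a difference, among genes with at least 50 molecules over the 2 pools compared. Both comparisons with saline share the saline pool. In all T cells at 4 h, 2 of the 10 genes, Tcrg-C1 and Tcrg-C2, were past that size, both higher, against 9.07% of 10323 genes in either direction and 6.14% of them higher. At 8 h none of the 10 was past it, against 7.92% of 10302 genes. At 8 h against 4 h, Trdc, Tcrg-C1 and Tcrg-C2 were lower, against 8.11% of 10354 genes in either direction and 5.21% lower. In all T cells the genes past it were those of the γδ receptor, and the 7 CD3 and αβ genes stayed within it in the 3 comparisons. In smaller sets some of the 7 were past it, as given for Trac in double-negative NK receptor+ cells below. In cells with at least 5 Trdc molecules, Cd3d stood at 1.33 and Trbc1 at 1.36 at 4 h over saline. Trac stood there at 1.30 and Trbc2 at 1.31 at 8 h over saline, and Trac at 1.53 at 8 h over 4 h. The other ratios of the 7 genes in those cells were within it.

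Among the CD3 chains in T cells, Cd3e stood at 749.7 CPM in saline, 769.2 CPM at 4 h and 748.0 CPM at 8 h. Cd3d stood at 535.2, 544.4 and 526.5 CPM in the same order, and Cd3g at 570.1, 573.9 and 585.3 CPM. Cd247 stood at 222.0, 212.2 and 215.2 CPM. The ratios of these 4 genes ran from 0.956 (0.909 to 1.01, Cd247) to 1.03 (0.999 to 1.05, Cd3e) at 4 h over saline, and from 0.969 (0.922 to 1.02, Cd247) to 1.03 (0.996 to 1.06, Cd3g) at 8 h over saline. Each of these intervals lies well within the size counted as a difference.

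The αβ constants were as close. Trac stood at 1911 CPM in saline, 1850 CPM at 4 h and 1947 CPM at 8 h, with ratios to saline of 0.968 (0.952 to 0.985) and 1.02 (1.00 to 1.04). Trbc2 stood at 3140, 3004 and 3133 CPM in the same order, with ratios of 0.957 (0.944 to 0.969) and 0.998 (0.984 to 1.01). Trbc1 stood at 734.6, 750.8 and 759.1 CPM, with ratios of 1.02 (0.995 to 1.05) and 1.03 (1.01 to 1.06). Trbc2 at 4 h was lowest against saline in double-negative NK receptor- cells, where it stood at 3372 CPM in saline, 2970 CPM at 4 h and 3362 CPM at 8 h, a ratio of 0.881 (0.848 to 0.914) at 4 h. Trbc2 in Foxp3+ cells stood at 3562, 3174 and 3312 CPM in the same order, a ratio of 0.891 (0.843 to 0.942) at 4 h and 0.930 (0.880 to 0.982) at 8 h. In the same cells Trbc1 stood at 769.8, 887.7 and 898.6 CPM, a ratio of 1.15 (1.03 to 1.29) at 4 h and 1.17 (1.04 to 1.31) at 8 h, so Trbc2 was lower and Trbc1 higher than in saline. None of these was past the counted size, and reads shared by both genes can move one against the other.

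**Figure D3:**
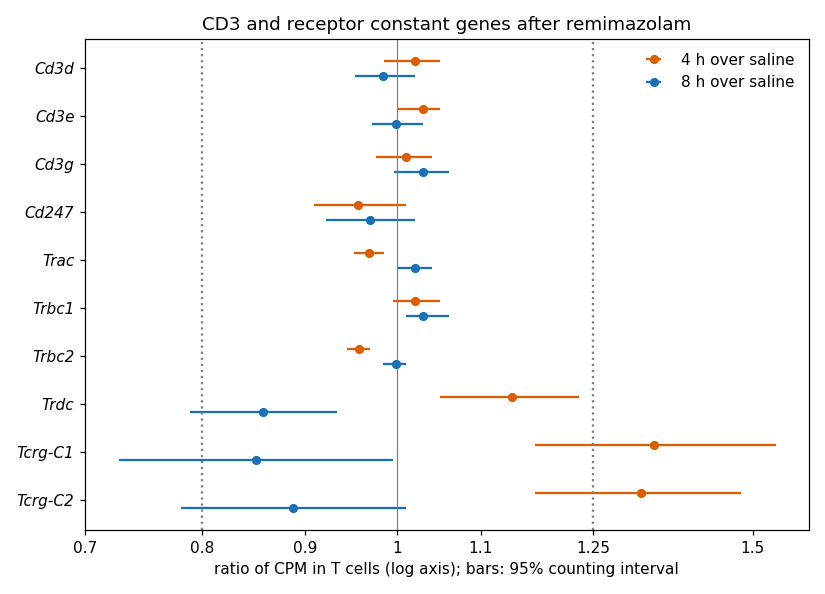
Ratio of CPM in T cells (horizontal log axis) at 4 h over saline and at 8 h over saline for the 10 genes, with exact 95% counting intervals and dotted lines at 20% lower and 25% higher. The 4 CD3 chains and the αβ constants lie between 0.956 and 1.03, while Tcrg-C1 and Tcrg-C2 lie at 1.34 and 1.32 at 4 h. Intervals of the γδ constants are too narrow, since few cells hold most of their molecules.

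Tcrg-C1 stood at 25.3 CPM in saline, 34.0 CPM at 4 h and 21.5 CPM at 8 h, from 353, 486 and 307 molecules. Tcrg-C2 stood at 36.5, 48.0 and 32.4 CPM in the same order, from 509, 687 and 462 molecules. Trdc stood at 86.1, 98 and 73.8 CPM, from 1200, 1402 and 1052 molecules. For all 3 genes the 4 h pool was highest and the 8 h pool lowest. Without cells of at least 5 Trdc molecules, Tcrg-C1 and Tcrg-C2 at 8 h instead stood at 1.05 and 1.06 of saline. The ratios at 4 h over saline were 1.34 (1.17 to 1.54) for Tcrg-C1, 1.32 (1.17 to 1.48) for Tcrg-C2 and 1.14 (1.05 to 1.23) for Trdc. At 8 h over saline they were 0.851 (0.728 to 0.995), 0.888 (0.781 to 1.01) and 0.858 (0.789 to 0.933), and at 8 h over 4 h 0.634 (0.548 to 0.733), 0.675 (0.599 to 0.761) and 0.754 (0.695 to 0.817).

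These molecules sit in few cells, so the number of cells is the better guide to their error. Tcrg-C2 was found in 155 T cells in saline (3.02%, 2.57 to 3.53), 217 at 4 h (4.14%, 3.61 to 4.71) and 161 at 8 h (3.07%). Tcrg-C1 was found in 124 (2.42%, 2.02 to 2.88), 176 (3.36%, 2.88 to 3.88) and 139 (2.65%). Trdc was found in 237 (4.63%, 4.07 to 5.24), 273 (5.20%, 4.62 to 5.84) and 236 (4.50%). The saline and 4 h intervals lay apart for Tcrg-C2, met for Tcrg-C1 and overlapped for Trdc. Cells with at least 5 Trdc molecules, a bound chosen after the values were seen, numbered 85 in saline (1.66%), 110 at 4 h (2.10%) and 80 at 8 h (1.53%). The ratio of these shares was 1.26 (0.944 to 1.70) at 4 h over saline, 0.920 (0.669 to 1.26) at 8 h over saline and 0.728 (0.539 to 0.979) at 8 h over 4 h. A difference of 4 h from saline in the share of such cells was therefore not detectable with this number of cells. The interval covers counting error only, with 1 pool per treatment. For cells with at least 5 molecules of Tcrg-C1, Tcrg-C2 and the related Tcrg-C4 in sum, the share ratio was 1.18 (0.91 to 1.53) at 4 h over saline.

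The double-negative NK receptor+ cells, which hold the highest γδ constant levels, made up a larger share of the 4 h pool. They made up 1.33% of T cells in saline (68 cells), 2.54% at 4 h (133 cells) and 1.76% at 8 h (92 cells), with share ratios to saline of 1.91 (1.42 to 2.60) at 4 h and 1.32 (0.956 to 1.84) at 8 h. The summed level of the 10 natural killer or innate-like genes in T cells was 50.2 CPM in saline, 78.8 CPM at 4 h and 68.0 CPM at 8 h, with none of the 10 at 0. With the mix of classes held at that of saline, the 4 h ratios were 1.17 for Tcrg-C1, 1.15 for Tcrg-C2 and 1.04 for Trdc, and none of the 10 genes was past the counted size. Without these cells they were 1.18, 1.26 and 1.12. Leaving out the class thus left Tcrg-C2 past the counted size and Tcrg-C1 below it, and the part of the class in the difference was not tested further. The difference of 8 h from 4 h stayed past the counted size for Tcrg-C1 and Tcrg-C2 with the mix held, at 0.697 and 0.746.

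Within the double-negative classes the pattern was not uniform. In double-negative NK receptor- cells Trdc stood at 294.6 CPM in saline, 378.3 CPM at 4 h and 277.5 CPM at 8 h, and was found in 68 (9.09%), 86 (11.3%) and 68 (9.18%) cells. Tcrg-C2 stood there at 99.4, 147.0 and 106.0 CPM and Tcrg-C1 at 78.9, 100.3 and 60.7 CPM. In these cells all 3 γδ constants were past the counted size at 4 h over saline, at 1.28 (1.14 to 1.44), 1.48 (1.21 to 1.81) and 1.27 (1.01 to 1.60), where 21.1% of genes were past it. At 8 h over saline 1 of the 10 genes, Tcrg-C1, was, lower at 0.770 (0.589 to 1.00), against 19.7% of genes, and at 8 h over 4 h all 3 were lower, at 0.734, 0.721 and 0.606, against 21.1%. In double-negative NK receptor+ cells Trdc instead stood at 974.2, 705.8 and 422.0 CPM from saline to 8 h, ratios to saline of 0.725 (0.597 to 0.881) and 0.433 (0.339 to 0.552), but from 21, 35 and 17 cells with the gene. There 36.9% of genes at 4 h and 36.6% at 8 h were past the counted size, and at 4 h 1 of the 10 genes (Trdc) and at 8 h 3 (Trdc, Tcrg-C1 and Tcrg-C2) were, all lower. At 8 h over 4 h the 3 γδ constants were lower and Trac was higher, at 1653 CPM at 8 h against 1288 CPM at 4 h (1.28, 1.12 to 1.47), where 32.4% of genes were past it. A single cell held 16.8% of the saline Trdc molecules of this class and 17.4% of those at 8 h.

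Cd8+ cells had lower Trdc, Tcrg-C1 and Tcrg-C2 at 8 h than in saline. In them Trdc stood at 60.8 CPM in saline, 54.8 CPM at 4 h and 44.1 CPM at 8 h, Tcrg-C2 at 27.3, 22.4 and 18.9 CPM, and Tcrg-C1 at 14.6, 18.0 and 9.21 CPM. The ratios at 8 h over saline were 0.726 (0.615 to 0.856), 0.695 (0.539 to 0.893) and 0.631 (0.439 to 0.901), the 3 genes of the 10 past the counted size there, against 11.5% of genes. At 8 h over 4 h Tcrg-C1 was past it, at 0.512 (0.361 to 0.716), again against 11.5%. The related γ constant Tcrg-C4 was not lower in these cells, at 17.5 CPM at 8 h against 14.1 CPM in saline (interval of the ratio 0.922 to 1.69). The number of Cd8+ cells with Trdc was nearly level, at 78 (3.95%), 81 (3.90%) and 73 (3.73%). In Cd4+ cells 1 of the 10 genes was past the counted size at 4 h, Tcrg-C2 at 1.27 (0.865 to 1.88), against 12.4% of genes, while Tcrg-C1 stood at 0.841 (0.575 to 1.23) and Tcrg-C4 at 0.412 (0.266 to 0.622), with none of the 10 at 8 h (12%) and none at 8 h against 4 h (12.8%). In Foxp3+ cells none of the 7 genes with enough molecules was past it at 4 h (29.1%), at 8 h (27.8%) or at 8 h against 4 h (29.3%). In Cd4+Cd8+ cells Trdc stood at 14.7 CPM in saline, 13.0 CPM at 4 h and 58.2 CPM at 8 h, the 1 gene past it at 8 h (26.5%) and at 8 h against 4 h (26.9%), while none of the 7 genes with enough molecules was at 4 h (26.5%). A single cell held 51.9% of those 8 h molecules.

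Trdc molecules were spread widely over the cells that had any. Of 746 T cells with Trdc, 308 had a single molecule and 163 had 2 to 4, while 143 had 5 to 9 and 132 had 10 or more. The 275 cells with at least 5 held 79.6% of all Trdc molecules. Just inside and outside that bound, 38 cells had 5 molecules and 28 had 4, and they were alike: any γ constant was found in 65.8% and 71.4% of them and Trac in 50% and 46.4%. The bound is thus no break in the data. Of the 275 cells, 140 were double-negative NK receptor-, 67 Cd8+, 45 double-negative NK receptor+, 18 Cd4+, 4 Cd4+Cd8+ and 1 Foxp3+. Single Trdc molecules lay mostly in the 2 large classes, with 107 in Cd4+ and 115 in Cd8+ cells, and 3.08% of Cd4+ cells had any Trdc against 0.875% of B cells, at median depths of 2422 and 2269 molecules.

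As Trdc molecules per cell went up, Trac was found less often and γ constants more often. A Trac molecule was found in 95% of the 14865 T cells without Trdc, in 90.6% with 1 molecule, 71.2% with 2 to 4, 49.0% with 5 to 9 and 46.2% with 10 or more. A molecule of Tcrg-C1, Tcrg-C2 or the related γ constant Tcrg-C4 was found in 3.09%, 6.82%, 38.7%, 79.7% and 95.5% of cells in the same order. Median depth per cell was alike, from 2329 to 2792 molecules. Cd3e was found in 84.4% of cells with at least 5 Trdc molecules and 81.5% of cells without Trdc, and Cd247 in 49.1% of these cells and 41.8% of cells without Trdc, so the CD3 chains were present in both.

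Detection of Trbc2 was near its ceiling in all of these cells, so its level is given beside it. Trbc2 was found in 95.6% (92.5 to 97.7) of cells with at least 5 Trdc molecules, against 98.1% of cells without Trdc, and its level was 2106 CPM in the Trdc-rich cells against 3111 CPM in those without. Along the number of Trdc molecules the Trbc2 level was 3111 CPM at 0, 3042 at 1, 3205 at 2 to 4, 2336 at 5 to 9 and 1895 CPM at 10 or more, and that of Trac 1941, 1664, 1452, 633.7 and 355.0 CPM. Both were lower in Trdc-rich cells, Trac by more. Trbc1 was found in 60.0% of the Trdc-rich cells against 55.4% of those without. Of the variable segments given here, those of the γ chain differed most between the groups, and the Trav segments hardly differed. Tcrg-V1 was found in 44.7% of cells with at least 5 Trdc molecules against 0.451% of cells without Trdc, and Trgv2 in 49.8% against 0.962%. Any of 6 Trdv segments, those of the δ chain, was found in 7.64% (4.79 to 11.4) against 0.451% (0.349 to 0.572). Any of 26 Trbv segments was found in 13.1% (9.34 to 17.7) against 19.5% (18.9 to 20.2), and any of 75 Trav segments in 7.64% against 7.32%. A Trbc2 molecule was thus found in nearly all Trdc-rich cells, at a lower level than in cells without Trdc.

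**Figure D4:**
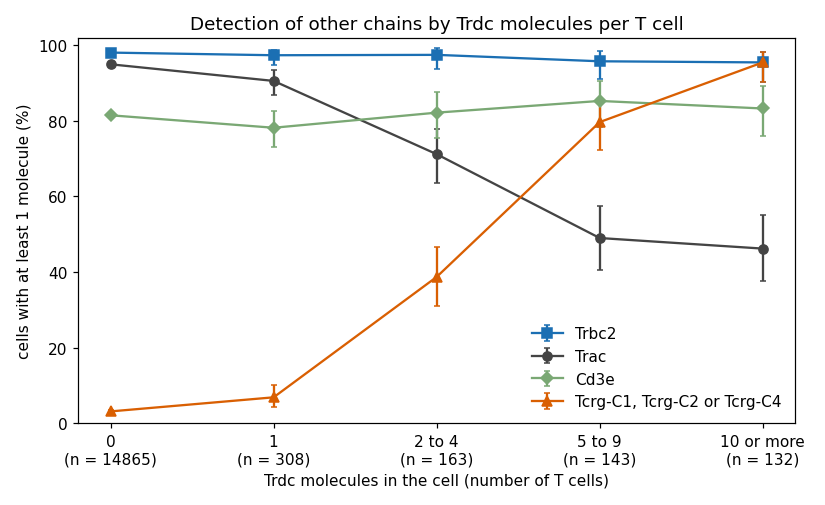
Share of T cells with at least 1 molecule of Trbc2, Trac, Cd3e or any of Tcrg-C1, Tcrg-C2 and Tcrg-C4 (vertical axis, %) by the number of Trdc molecules in the cell (horizontal axis), with exact 95% intervals. Trac goes from 95% to 46.2% and the γ constants from 3.09% to 95.5% along the axis. Trbc2 is near its ceiling, at 95.5% or higher, while its level is 1895 CPM in the last bin against 3111 CPM in the first.

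The γ constants were found together in single cells. Of 336 T cells with at least 5 molecules of Tcrg-C1, Tcrg-C2 and Tcrg-C4 in sum, 316 (94.0%) had at least 2 of the 3 genes and 191 (56.8%) all 3. A single gene held more than 80% of the molecules in 10 cells for Tcrg-C1, 27 for Tcrg-C2 and 13 for Tcrg-C4. Trdc was found in 214 of the 336 cells (63.7%). The other 122 had Trac in 98.4%, and 38 of them were double-negative NK receptor+, 27 Cd4+, 24 double-negative NK receptor- and 21 Cd8+. Transcripts of a γ constant without Trdc were thus found with Trac in nearly all of these cells. The likeness of Tcrg-C1 and Tcrg-C2 limits how far these genes can be told apart, and that of Tcrg-C4 to them was not measured.

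The genes most enriched in T cells with Trdc over those without, among 5972 genes with enough molecules, began with the γ genes themselves. Tcrg-V1 stood at 130.0 CPM in cells with Trdc against 2.20 CPM in cells without, a ratio of 59.1 (46.3 to 75.9), Tcrg-C4 at a ratio of 33.4, Trgv2 at 28.5, Tcrg-C2 at 25.7 and Tcrg-C1 at 23.3. They were followed by Prdm16 at 54.4 against 3.76 CPM, a transcription factor gene known from brown fat (14.5, 11.2 to 18.6), and Klrc1 at 72.2 against 6.85 CPM, which encodes the inhibitory receptor NKG2A (10.5, 8.58 to 12.9). Rbpms, which encodes an RNA-binding protein, had a ratio of 7.85, the natural killer receptor gene Klre1 7.33 and Spry2, an inhibitor of receptor tyrosine kinase signalling, 7.19. Klre1 is also one of the genes that set the NK receptor gate. Levels in this comparison come from 746 cells with and 14865 cells without Trdc over all 3 pools.

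At full depth Trbc1 and Trbc2 were found in the same cell more often than apart. Both were found in 53.9% of T cells, Trbc2 alone in 44.1% and Trbc1 alone in 1.51%. Among T cells thinned to 1500 molecules each, Trbc1 was found in 46.8% and Trbc2 in 94.9%. Both genes were then found together in 43.3% of cells, Trbc2 alone in 51.5% and Trbc1 alone in 3.48%. The majority with both genes at full depth thus depended on depth. Among 7570 T cells with at least 10 Trbc molecules, 2956 (39.0%) had no Trbc1, 881 (11.6%) had Trbc1 at under 10% of the sum, 3713 (49.0%) had 10% to 90%, and 20 (0.264%) had over 90%. By these counts, cells in which Trbc1 was nearly the sole β constant were rare, while Trbc2 alone was common. How reads that match both genes were assigned is not known. These shares therefore describe counts and do not show which β constant a cell used. Trbc1 made up 19% of Trbc molecules in saline, 20% at 4 h and 19.5% at 8 h, and the mixed cells 49.5%, 48.5% and 49.1%, so the split was level over the pools.

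**Figure D5:**
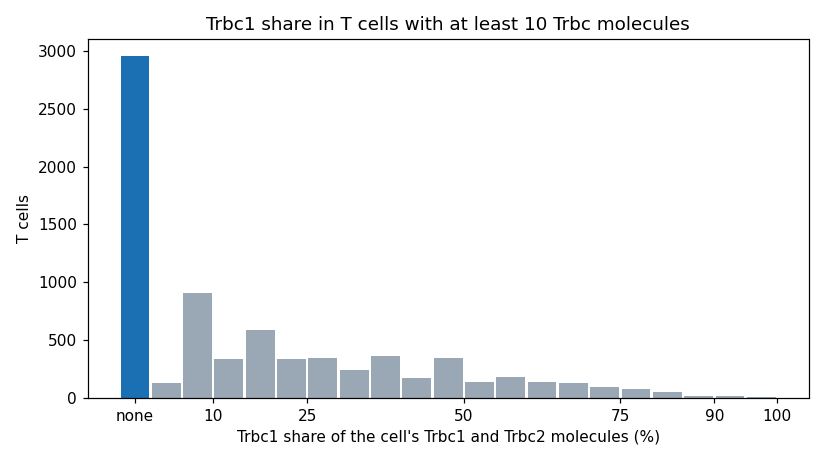
Number of T cells (vertical axis) by the share of Trbc1 among the Trbc1 and Trbc2 molecules of the cell (horizontal axis, bins of 5 percentage points), in 7570 T cells with at least 10 such molecules. The first bar holds the 2956 cells with none, and 20 cells lie over 90%. The mixed cells, at 10% to 90%, lie mostly toward low shares of Trbc1, with a median of 31.2%.

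Mixed cells were as frequent in the main classes, with 50.1% in Cd4+, 49.2% in Foxp3+, 46.4% in Cd8+ and 49.5% in double-negative NK receptor- cells. They were 57.8% (53.1 to 62.3) of Cd4+Cd8+ cells, whose median depth in this set was 3244 molecules against 2760 over all T cells. Barcodes that the authors' tag calls name multiplets, which hold cells of more than 1 pool, gave a yardstick for doublets: 62.2% (58.9 to 65.5) of 842 such barcodes were mixed and 18.4% had no Trbc1, at a median of 4800 molecules. The share of multiplets in the mixed T cells was not tested.

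Across cell classes, the genes nearest to Cd3e in level were its partners. Over 21 points, 7 gated classes (B cells included) by 3 treatments, the Pearson correlation of log2(CPM + 10) with Cd3e was 0.996 for Cd3g, 0.993 for Cd3d, 0.992 for Lck, whose kinase phosphorylates the CD3 tails, 0.992 for Cd96, which encodes a cell surface receptor, and 0.991 for Skap1, which encodes an adaptor of T cells. The αβ constants followed at 0.987 for Trbc1, 0.985 for Trbc2 and 0.976 for Trac, and Cd247 at 0.975. Trdc was nearest to Tcrg-C4 at 0.969, Tcrg-C1 at 0.967, Tcrg-C2 at 0.953, Trgv2 at 0.932 and Xdh, which encodes xanthine dehydrogenase, at 0.904, and stood at 0.534 with Cd3e. The points share 1 capture, B cells are low in all CD3 genes, and 7796 genes were ranked, so these values describe the profile only.

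Most genes that work with the receptor were level over the pools. Of 19 genes of the proximal receptor pathway, 18 had enough molecules, and in T cells 1 was past the counted size at 4 h (higher), 0 at 8 h and 1 at 8 h against 4 h (lower), beside 9.07%, 7.92% and 8.11% of all genes. The list had medians of 1.00, 1.02 and 1.01 beside 1.01, 1.00 and 0.988 over all genes. The phosphatase gene Ptprc stood at ratios to saline of 1.01 at 4 h and 1.01 at 8 h, the kinase gene Lck at 0.999 and 1.02, and Cd8b1, which encodes the CD8 β chain, at 1.03 and 0.972. The 1 gene past it was Fcer1g, which encodes the Fc receptor γ chain, a relative of the ζ chain that can take its place. Fcer1g stood at 11.8 CPM in saline, 18.3 CPM at 4 h and 13.6 CPM at 8 h, ratios to saline of 1.56 (1.28 to 1.9) and 1.16 (0.935 to 1.43). Its level in double-negative NK receptor+ cells was 118.4 times (88.0 to 162.1) that in Cd4+ cells. The part of that class's share in the ratio was not tested.

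The other lists held no gene past the counted size in any of the 3 comparisons, beside 9.07%, 7.92% and 8.11% of all genes, so a count of 0 in lists this short says little. Of 12 genes of receptor turnover and restraint, 11 had enough molecules, among them the ubiquitin ligase gene Cbl at ratios to saline of 0.993 at 4 h and 0.986 at 8 h, the phosphatase gene Ptpn22 at 1.02 and 0.989, and the phosphatase gene Ptpn6 at 0.916 and 0.978. Of 8 genes of receptor recombination and early T cell development, 5 had enough molecules, and Rag1 and Rag2 were not among the genes of the table. Id2, which encodes an inhibitor of E proteins, came nearest to the counted size at 4 h, with 205.7 CPM in saline, 256.1 CPM at 4 h and 215.4 CPM at 8 h, a ratio of 1.24 (1.19 to 1.31) at 4 h. Tcf12 stood at 0.975 and 0.985 and Id3 at 1.03 and 1.18. All 12 genes of T cell identity factors had enough molecules, among them Tcf7 at 1.08 and 1.00, Ets1 at 0.944 and 1.01, and Lef1 at 0.985 and 0.970.

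Markers of other cells in the T cells are given as measured. Cells with at least 2 B cell or at least 2 myeloid markers had been set aside, so low sums of these lists follow in part from the gate. The plasma cell list was not used by a gate. The B cell list summed to 15.2 CPM in saline, 18.4 CPM at 4 h and 12.9 CPM at 8 h, and the plasma cell list to 41.4, 77.6 and 45.2 CPM, with every one of their 5 and 4 genes present. The myeloid list summed to 1.72, 2.79 and 3.30 CPM, and the erythroid list to 1.79, 0.629 and 0.912 CPM. A list of γδ T cell genes without the constants summed to 22.2 CPM in saline, 27.7 CPM at 4 h and 19.3 CPM at 8 h, with 2 of the 8 genes in the table at 0 in each pool. Its order over the pools was that of Tcrg-C1, Tcrg-C2 and Trdc, but the B cell list had the same order. The part of plasma cell, B cell, myeloid or erythroid RNA in the values above was not tested.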

How the data were processed

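The deposited expression table holds counts: whole numbers of RSEC-adjusted molecules, read from unique molecular identifiers, for each gene in each cell the authors' pipeline called putative, per the file headers. Per the same headers the authors used the BD Rhapsody WTA Multiplex pipeline 1.9.1 with GRCm38 and GENCODE M19. The aligner, and what was done with reads that match several genes, are not stated in the labels or headers. The deposited tag calls gave each cell's treatment. Multiplets (1063 cells), undetermined cells (60) and 2 cells of a tag of no group were left out. No further doublet caller was run, and free RNA was not corrected.

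Cells with at least 200 genes and under 25% mitochondrial molecules were kept. Classes were gated on at least 1 molecule of Foxp3, Cd4, or Cd8a or Cd8b1. For each tag and class, a gene's molecules were added up and scaled by the sum over all genes (CPM). Ratios have exact conditional-binomial, levels exact Poisson and shares exact Clopper-Pearson 95% intervals, which cover counting error only. Thinned shares used 1500 molecules drawn from each cell and left out shallower ones (263 T cells in saline, 261 at 4 h, 286 at 8 h). With 1 tag per treatment there is no test. The 3 comparisons were 4 h with saline, 8 h with saline and 8 h with 4 h. A γδ constant's molecules cluster in few cells, so intervals on its molecules are too narrow. The ratio calculation was tested on simulated counts that did not cluster in few cells. That test therefore does not cover the intervals of the γδ constants.

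The genes and the lists were chosen with earlier results of these data known. The text names the 10 genes, the 5 genes nearest in profile to Cd3e and to Trdc, the 10 genes with the highest ratio in T cells with Trdc, and of each list the 3 genes with most molecules and any past the fold; other genes named were chosen after their values were seen. Coordinates and constant sequences come from GENCODE M21 and promoters from RefSeq on GRCm38.p6. Symbols were looked up in GENCODE M21, a later release than the authors' M19. Python 3.11.15 with numpy 2.4.6, scipy 1.17.1, pandas 2.3.3, biopython 1.88 and matplotlib 3.10.9 was used, and edgeR 4.0.16 in R 4.3.3 gave the TMM factors of 1 alternative. The alternatives tried are given in the closing section.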

Additional observations from a re-analysis of the deposited data

How the results depend on the processing

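The number of the 10 genes past the counted size in T cells (25% higher or 20% lower) was 2 at 4 h, 0 at 8 h and 3 at 8 h against 4 h. At 4 h it was 0 with the mix of classes held at that of saline and 1, Tcrg-C2, without double-negative NK receptor+ cells, an alternative added after the data were seen. None of the other alternatives moved these counts by more than 1.5 times: no cell filter, a filter of 500 genes and 15% mitochondrial molecules, no minimum of molecules, median-of-ratios or TMM factors, equal weight per cell, raw molecules, leaving out cells above the 98th percentile of molecules, and leaving out cells of at least 5 Trdc molecules. A fall from 3 genes to 2 stays within that bound. Of 300 recomputed ratios, 290 stayed inside the counting interval of the value in the text, 10 left it, and for 0 did a counted difference turn round. With cells of at least 5 Trdc molecules kept, the Tcrg-C1 ratio at 4 h ran from 1.17 to 1.43, that of Tcrg-C2 from 1.15 to 1.36 and that of Trdc from 1.04 to 1.24. Without those cells, also an alternative added after the data were seen, Tcrg-C2 at 4 h stood at 1.41, and Tcrg-C1 and Tcrg-C2 at 8 h over saline stood at 1.05 and 1.06, on the other side of 1 from 0.851 and 0.888. Trdc at 8 h over 4 h then stood at 0.871 (0.728 to 1.04), no longer past the counted size. With those cells kept, that Trdc ratio ran from 0.704 to 0.816, and the upper end is also short of 20% lower. The lower Trdc at 8 h against 4 h thus depended on the processing. With no minimum of molecules, 3855 of 14687 genes were past that size at 4 h against 936 of 10323, 3665 against 816 at 8 h and 3679 against 840 at 8 h over 4 h. TMM factors were 0.994 in saline, 1.01 at 4 h and 0.997 at 8 h, and no scaling moved the median log2 ratio of all genes by over 0.1. Thinning to 1500 molecules moved 64 of 72 shares of cells, since it lowers depth, and gates on at least 2 molecules moved 13 of 72. No paired analysis was possible because each treatment is 1 pool with 1 tag, and for the same reason no replicate could be left out.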
